A study of Mus musculus with 9 samples.

Results

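The SOCS family (suppressors of cytokine signalling) has 8 members, Cish and Socs1 to Socs7, and all 8 were measured in mouse lungs that had received an adenovirus carrying IL-4, a splice variant of IL-4, or no cytokine. Members were taken as the probe sets whose only gene symbol in the platform annotation was 1 of these names, which gave 24 of 45101 probe sets. Of these, 17 probe sets, standing for 7 genes, were bright enough to be tested, and 7 probe sets were not. Socs1 had 1 probe set, which was among those not tested.

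Lung RNA came from 9 female C57BL/6 mice aged 14 weeks, 14 days after a replication-deficient adenovirus was given into the trachea. The virus encoded mouse Interleukin-4 in the AdV-IL4 group, mouse Interleukin-4d2 in the AdV-IL4d2 group and no cytokine in the AdV-NULL group, which is the control. Each group held 3 mice with 1 Affymetrix 3' expression array per mouse, and all 9 animals carried the virus backbone, so no uninfected lung enters any value. IL-4 is the leading cytokine of type 2 immunity, and the d2 form is made from the same gene by alternative splicing. Values are MAS5 signals, intensities on a linear scale.

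SOCS proteins close a feedback loop. A cytokine activates JAK kinases at its receptor, the kinases activate STAT transcription factors, and the STATs switch on SOCS genes, whose proteins bind the receptor or the kinase and recruit an elongin and cullin ubiquitin ligase through a shared SOCS box. Cish, Socs1, Socs2 and Socs3 are the members best known for induction by cytokines, while Socs4 to Socs7 are better known for acting on growth factor and insulin receptors.

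The sequence feature that ties Cish and Socs3 to this loop is the STAT binding motif, so the stretch of each promoter that holds it is shown. RefSeq promoter windows (GRCm38.p6, 250 bases before to 50 bases after the annotated start) were matched for 4 of the 8 members, Cish, Socs1, Socs3 and Socs4. The motif searched was TTCNNNGAA, which reads the same on both strands. The printed runs are 100 bases each, 5′ to 3′ on the strand of the gene, with the motif matches in capitals. The Cish run is chr9:107296580-107296679 on the plus strand, from 79 bases before the start to 21 bases after it. The Socs3 run is chr11:117969466-117969565 on the minus strand, from 199 to 100 bases before the start.
Cish: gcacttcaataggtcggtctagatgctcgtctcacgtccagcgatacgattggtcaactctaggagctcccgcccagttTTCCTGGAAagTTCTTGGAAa
Socs3: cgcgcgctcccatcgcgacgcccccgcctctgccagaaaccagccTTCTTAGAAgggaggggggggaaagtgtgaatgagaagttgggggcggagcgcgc

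The Cish window held 2 matches, TTCCTGGAA beginning at base 1 after the start and TTCTTGGAA beginning at base 12. The Socs3 window held 1 match, TTCTTAGAA, beginning 154 bases before the start. The windows of Socs1 and Socs4 held 0 matches, which says only that these letters are not in those 300 bases. Over all 32851 RefSeq windows of the same length, 8.3% held at least 1 match and 0.457% held 2 or more. A related motif with 1 more spacer base, TTCNNNNGAA, the form preferred by STAT6, was in 6.95% of all windows and in 0 of the 4 SOCS windows. A match is a description of the sequence and not a measured binding site.

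Some features of the arrays touch every value that follows. The 2% trimmed mean was 500.002 on each array and array medians lay between 156 and 171, so a difference here is relative to the typical probe set of the lung. Signals of the bacterial control transcripts added to the RNA or to the hybridisation mix were higher on the AdV-IL4 arrays. Scaling to the hybridisation controls moved the median log2 difference of all probe sets by −0.43 for AdV-IL4 against AdV-NULL and by −0.52 for AdV-IL4 against AdV-IL4d2. Scaling to the poly-A controls moved them by −0.77 and −1.04. For AdV-IL4d2 against AdV-NULL the shifts were 0.09 and 0.27. Under these scalings a rise with AdV-IL4 that is smaller than the shift becomes a fall, for SOCS members and pathway genes alike. AdV-NULL mouse 1 stood apart with a mean skeletal muscle signal of 13.31 on the log2 scale, against 6.53 to 10.05 on the other 8 arrays, of which AdV-IL4 mouse 2 was the lowest. Il4 itself read 15.8 to 71.6 in AdV-NULL, 301 to 379 in AdV-IL4 and 499 to 1172 in AdV-IL4d2 mice. The ratio of the 3' to the 5' Gapdh probe sets, a sign of RNA quality, was 1.71 ± 0.143 in AdV-IL4, 1.46 ± 0.112 in AdV-IL4d2 and 1.28 ± 0.284 in AdV-NULL mice (SD, n = 3 each). For AdV-IL4 against AdV-NULL the two-sided exact permutation p of that ratio was 0.1, the smallest that 3 against 3 can give, and it was 0.2 for AdV-IL4 against AdV-IL4d2. The same ratio of the Actb probe sets was 3.23 ± 0.486, 2.58 ± 0.226 and 2.65 ± 0.325 in the same order. The part of these features in the SOCS values was not tested beyond the fits given beside each result.

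Cish was the SOCS gene that rose with IL-4, both against the control virus and against the splice variant. CIS, its protein, occupies the phosphorylated receptor sites that STAT5 would dock to. The signal of Cish (probe set 1448724_at) was 1279, 1597 and 1599 in the 3 AdV-NULL mice. It was 2124, 2421 and 2217 in the AdV-IL4 mice, and 1207, 971 and 1399 in the AdV-IL4d2 mice. Every AdV-IL4 mouse was above every mouse of the other groups, while the AdV-IL4d2 and AdV-NULL mice overlapped.

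The group means of Cish were 1492 ± 184 with AdV-NULL, 2254 ± 152 with AdV-IL4 and 1192 ± 214 with AdV-IL4d2 (SD, n = 3 each). Against AdV-NULL, Cish rose 1.51-fold with AdV-IL4, a log2 difference of 0.60 ± 0.13 (SE, 95% interval 0.30 to 0.89, limma adjusted p = 0.0156). Here and below the fold is on the log2(signal + 16) scale, and p-values are adjusted by Benjamini-Hochberg over all 23824 probe sets tested. The call was lost when AdV-NULL mouse 1, the lung with the high muscle signal and the lowest Cish of its group, was left out (log2 difference 0.49, adjusted p = 0.0648). Without both that array and AdV-IL4 mouse 2 the difference was 0.44 (adjusted p = 0.135).

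Between the cytokine forms, Cish was 1.90-fold higher with AdV-IL4 than with AdV-IL4d2. The log2 difference was 0.92 ± 0.13 (95% interval 0.63 to 1.21, limma adjusted p = 0.00521). This call held in each of the 9 fits with 1 array left out, with log2 differences from 0.79 to 1.05 and a largest adjusted p of 0.024. It held as well without AdV-NULL mouse 1 and AdV-IL4 mouse 2 together (0.87, adjusted p = 0.0172). By p-value Cish was rank 46 of 11984 genes in this comparison, and 65 of the 142 genes called higher with AdV-IL4 had a larger difference. Against AdV-NULL it was rank 735, and 424 of the 760 genes called higher had a larger difference.

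AdV-IL4d2 against AdV-NULL gave a log2 difference of Cish of −0.33 ± 0.13 (95% interval −0.62 to −0.04), which did not pass the test. In limma the adjusted p was 0.282 and the unadjusted p was 0.0308. The fitted differences of the cytokine forms lay on opposite sides of the control virus. The 3 comparisons share arrays and are not independent of each other. The 3 Il4 signals of the AdV-IL4d2 mice were all above the 3 of the AdV-IL4 mice. That difference did not pass the test (log2 difference −1.25 for AdV-IL4 against AdV-IL4d2, limma adjusted p = 0.104). The Il4 signal is a transcript reading and not a measure of cytokine protein. The annotation used does not say which part of either virus transcript it reads. The part of cytokine dose in the Cish differences was not tested.

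**Figure D1:**
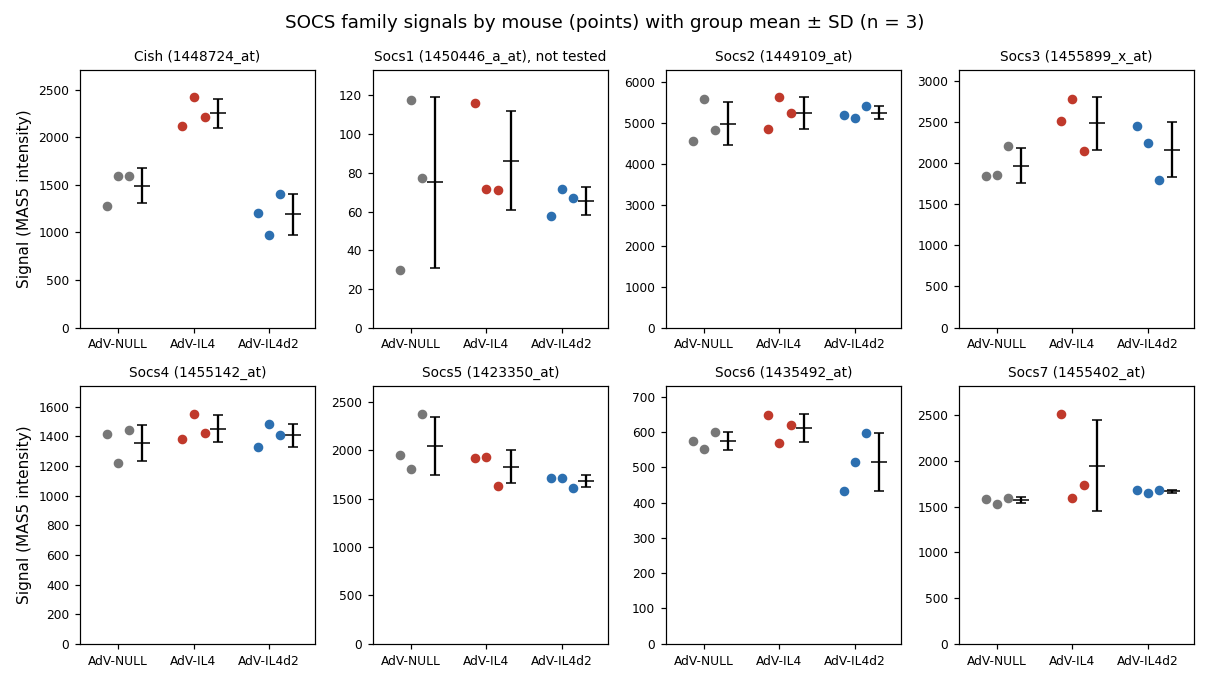
MAS5 signal (linear axis from 0, arbitrary intensity units) of the brightest tested probe set of each SOCS gene, and of the untested Socs1 probe set, by virus group. Points are mice and bars are the group mean ± SD (n = 3); the 3 AdV-IL4 mice lie at 2124 to 2421 for Cish, above all other mice, while for the other genes AdV-IL4 overlaps at least 1 other group. Signals are as scaled by the depositors, so they show levels relative to the typical probe set.

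The direction of the Cish differences depends on what the arrays are scaled to. With the hybridisation controls as reference, the log2 difference was 0.15 against AdV-NULL (limma adjusted p = 0.574) and 0.39 against AdV-IL4d2 (adjusted p = 0.123), and with the poly-A controls it turned to −0.20 and −0.14 (adjusted p = 0.447 and 0.56). Relative to the median of all probe sets, the difference was nearly the same under each scaling, from 0.57 to 0.62 against AdV-NULL and from 0.90 to 0.94 against AdV-IL4d2. Cish lay above 94.8% to 95.7% of all probe sets in the first comparison and above 99.2% to 99.3% in the second, over these scalings. Scaling to control transcripts adds a constant to each array, so for those scalings this agreement was fixed in advance and adds no support. The Cish values describe its signal relative to the other probe sets and not its absolute amount.

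**Figure D2:**
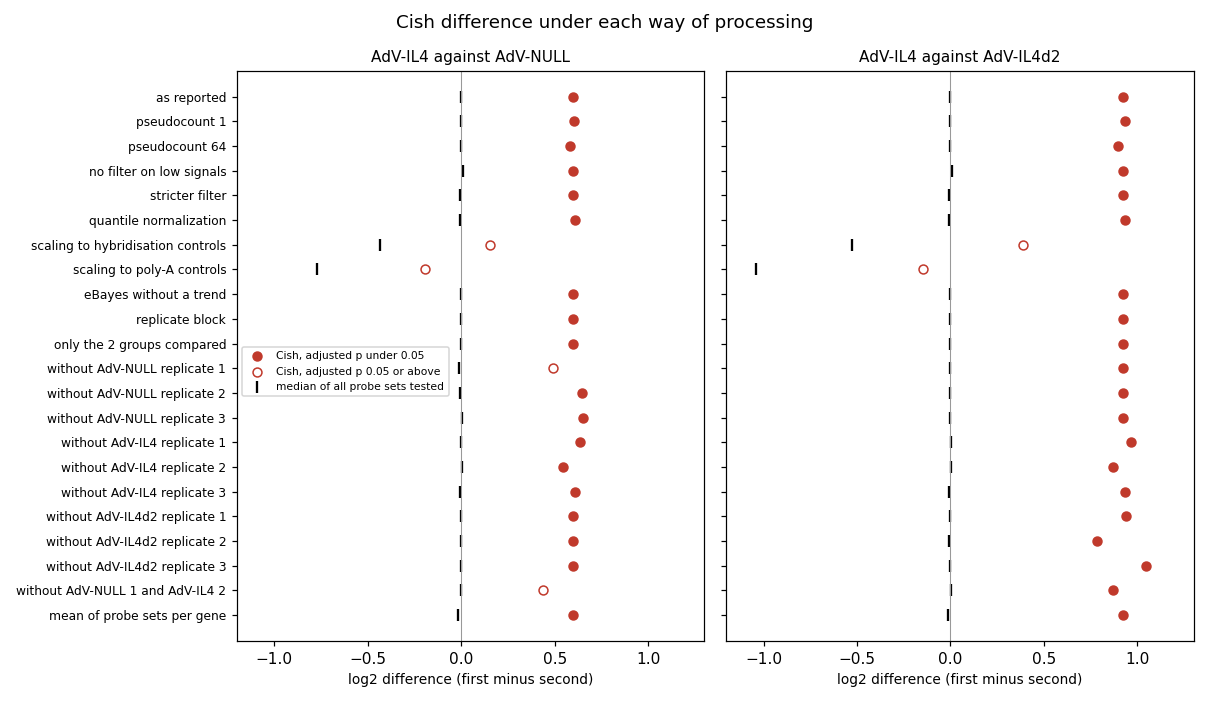
Log2 difference of Cish (points, x axis, first group minus second) under each way of processing, with the median of all probe sets tested (vertical ticks), for AdV-IL4 against AdV-NULL on the left and AdV-IL4 against AdV-IL4d2 on the right. Filled points passed the test at an adjusted p under 0.05. On the right the points stay between 0.79 and 1.05 except under scaling to control transcripts (0.39 and −0.14), where the ticks shift left as well. On the left the call is also lost without AdV-NULL replicate 1 (0.49), and without both that array and AdV-IL4 replicate 2 (0.44).

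Socs3 was the other cytokine-induced member with a called probe set, and its 3 probe sets did not give the same answer. SOCS3 inhibits JAKs bound to gp130, the shared receptor chain of the IL-6 family. The probe set 1416576_at read 298, 350 and 256 with AdV-NULL, 505, 474 and 386 with AdV-IL4, and 419, 303 and 401 with AdV-IL4d2. The AdV-IL4 mice were all above the AdV-NULL mice, and the AdV-IL4d2 mice overlapped both. Its log2 difference for AdV-IL4 against AdV-NULL was 0.57 ± 0.17 (SE, 1.49-fold, limma adjusted p = 0.0488), just inside the threshold of 0.05.

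That Socs3 call was lost in 6 of the 9 fits with 1 array left out, those without AdV-NULL mouse 1 or 3, AdV-IL4 mouse 1 or 2, or AdV-IL4d2 mouse 1 or 3, where the log2 difference ran from 0.47 to 0.57. Over all 9 fits it ran from 0.47 to 0.68, with adjusted p up to 0.152, and under poly-A scaling it turned to −0.19. The brightest Socs3 probe set, 1455899_x_at, read 1835, 1853 and 2207 with AdV-NULL, 2507, 2781 and 2147 with AdV-IL4, and 2447, 2240 and 1793 with AdV-IL4d2. The groups overlapped and the log2 difference for AdV-IL4 against AdV-NULL was 0.33 ± 0.13, with an adjusted p of 0.135 in limma and an unadjusted p of 0.0274.

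The third Socs3 probe set, 1456212_x_at, overlapped between all groups, at 725 to 1170, 945 to 1471 and 1016 to 1218 in the order AdV-NULL, AdV-IL4, AdV-IL4d2. Its log2 difference for AdV-IL4 against AdV-NULL was 0.34 ± 0.18 (limma adjusted p = 0.255). The suffix _x_at marks probe sets with probes that may also match other sequences, a mark that the called probe set does not carry. The mean of the 3 probe sets gave a log2 difference of 0.42 for AdV-IL4 against AdV-NULL (limma adjusted p = 0.0235). For AdV-IL4d2 against AdV-NULL the 3 Socs3 differences were 0.13 to 0.30, and for AdV-IL4 against AdV-IL4d2 0.09 to 0.27, and none of these passed the test (adjusted p from 0.445 to 0.847).

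Socs2 had 6 probe sets, all tested, and none passed the test in any comparison. SOCS2 is the main brake on growth hormone receptor signalling. Its brightest probe set, 1449109_at, read 4572, 5582 and 4821 with AdV-NULL, 4869, 5633 and 5252 with AdV-IL4, and 5199, 5131 and 5430 with AdV-IL4d2. These groups overlapped throughout. The log2 differences were 0.08 for AdV-IL4 against AdV-NULL (95% interval −0.12 to 0.28), 0.08 for AdV-IL4d2 against AdV-NULL (−0.12 to 0.28) and −0.003 between the forms (−0.20 to 0.20), with limma adjusted p of 0.655, 0.759 and 0.993.

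The dimmer Socs2 probe sets lay closer to the threshold. Probe set 1438470_at read 451, 379 and 452 with AdV-NULL, 578, 517 and 594 with AdV-IL4, and 504, 489 and 475 with AdV-IL4d2. The 3 groups did not overlap, with AdV-IL4 highest and AdV-NULL lowest. The log2 difference for AdV-IL4 against AdV-NULL was 0.39 ± 0.12 (limma adjusted p = 0.0522), and it passed under quantile normalization (adjusted p = 0.0445) and under a stricter filter (adjusted p = 0.0464).

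Socs2 probe set 1442586_at read 375, 404 and 381 with AdV-NULL, 551, 447 and 557 with AdV-IL4, and 466, 442 and 378 with AdV-IL4d2. AdV-IL4 and AdV-NULL did not overlap, and the log2 difference was 0.40 ± 0.13 (limma adjusted p = 0.0697). Without AdV-IL4 mouse 2 it was 0.50 and passed (adjusted p = 0.0443). It did not pass in the other fits with 1 array left out (limma adjusted p up to 0.176). Probe set 1446085_at separated the forms, at 500 to 654 with AdV-IL4 and 408 to 481 with AdV-IL4d2, a log2 difference of 0.40 ± 0.13 that did not pass (limma adjusted p = 0.137). The other Socs2 probe sets, 1418507_s_at and 1441476_at, differed by 0.05 and 0.28 for AdV-IL4 against AdV-NULL and overlapped between all groups. The annotation used does not say which part of the transcript each probe set reads.

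Socs1, whose protein blocks the JAK active site directly, was dim in these lungs. Its probe set 1450446_a_at was below the median of its own array on all 9 arrays, and was not tested. It read 29.7, 118 and 77.5 with AdV-NULL, 116, 71.8 and 71.1 with AdV-IL4, and 57.4, 71.5 and 67.0 with AdV-IL4d2. All groups overlapped, and the means of 75.0 ± 44.0, 86.3 ± 25.8 and 65.3 ± 7.17 (SD, n = 3) lay within the spread of the control mice. In the fit without a filter on low signals the log2 difference for AdV-IL4 against AdV-NULL was 0.27 (limma adjusted p = 0.799). Signals this low in MAS5 values do not show whether the gene was expressed.

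The members linked to growth factor and insulin receptors did not pass the test in any comparison. Socs5, which acts on the EGF receptor and has also been reported to bind the IL-4 receptor, showed the clearest separation among them. Its probe set 1423350_at read 1949, 1808 and 2381 with AdV-NULL, 1925, 1931 and 1635 with AdV-IL4, and 1719, 1714 and 1609 with AdV-IL4d2. Every AdV-IL4d2 mouse was below every AdV-NULL mouse, and the AdV-IL4 mice overlapped both groups. The log2 difference for AdV-IL4d2 against AdV-NULL was −0.27 ± 0.11 (95% interval −0.51 to −0.03), with a limma p of 0.0306 before and 0.282 after adjustment. Under poly-A scaling it was 0.005. The second Socs5 probe set, 1423349_at, differed by −0.01 in the same comparison (95% interval −0.24 to 0.22) and did not share the separation.

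Socs4, also linked to the EGF receptor, had 4 probe sets, of which 3 were below the array median on every array. The tested one, 1455142_at, read 1414, 1218 and 1442 with AdV-NULL, 1386, 1555 and 1420 with AdV-IL4, and 1327, 1482 and 1412 with AdV-IL4d2. The groups overlapped, and the log2 differences were 0.10 (95% interval −0.11 to 0.31), 0.05 (−0.16 to 0.26) and 0.05 (−0.16 to 0.26) in the order AdV-IL4 against AdV-NULL, AdV-IL4d2 against AdV-NULL and AdV-IL4 against AdV-IL4d2. None passed in limma (adjusted p = 0.564, 0.857 and 0.852).

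Socs6, which binds the receptor tyrosine kinase Kit and insulin receptor substrates, was lowest in 2 of the AdV-IL4d2 mice. Its probe set 1435492_at read 573, 551 and 599 with AdV-NULL, 647, 569 and 620 with AdV-IL4, and 432, 515 and 597 with AdV-IL4d2. AdV-IL4d2 mouse 3 lay among the other groups, so all groups overlapped. The log2 difference between the forms was 0.25 ± 0.13 (95% interval −0.02 to 0.53, limma adjusted p = 0.344). The second tested probe set, 1450129_a_at, gave 0.26 ± 0.16 in the same comparison (adjusted p = 0.438), with AdV-IL4d2 mice 1 and 2 again the lowest at 219 and 214 and mouse 3 at 301. The third Socs6 probe set was below the array median on every array.

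Socs7, linked to insulin signalling, owed its mean with AdV-IL4 to 1 mouse. Probe set 1455402_at read 1582, 1529 and 1594 with AdV-NULL, 2516, 1592 and 1735 with AdV-IL4, and 1679, 1650 and 1678 with AdV-IL4d2. AdV-IL4 mouse 1 was far above all others, and AdV-IL4 mouse 2 lay among the control mice. The log2 difference for AdV-IL4 against AdV-NULL was 0.28 ± 0.14 (limma adjusted p = 0.223), and it was 0.08 without AdV-IL4 mouse 1. AdV-IL4d2 and AdV-NULL did not overlap, yet differed by only 0.09 (95% interval −0.21 to 0.39, adjusted p = 0.828). The other tested probe set, 1434834_at, overlapped between all groups, with log2 differences of 0.10, 0.15 and −0.05 in the order given for Socs4. Socs7 had 2 more probe sets, which were not tested.

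**Figure D3:**
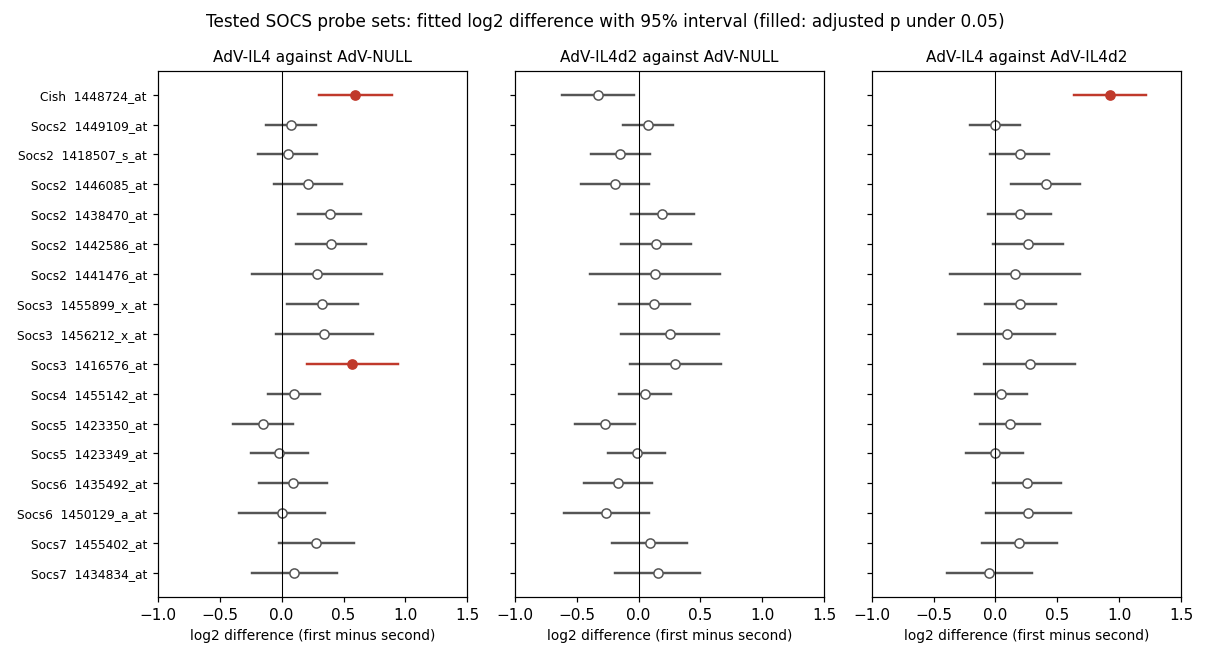
Fitted log2 difference (x axis, first group minus second) with its 95% interval for each of the 17 tested SOCS probe sets in the 3 comparisons. Filled points passed the test: Cish (0.60) and Socs3 1416576_at (0.57) for AdV-IL4 against AdV-NULL, 0 for AdV-IL4d2 against AdV-NULL, and Cish (0.92) for AdV-IL4 against AdV-IL4d2. Scaling to poly-A controls turned each of the 3 called differences below 0.

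Counted as genes by their brightest probe set, 1 of 7 tested SOCS genes rose with AdV-IL4 against AdV-NULL (Cish) and 0 fell, where 13.0% of all 11984 genes were called. At an unadjusted limma p under 0.05 there were 2, Cish and Socs3. The groups did not overlap for 1 of the 7, against 31.9% of all genes. A share of 1 in 7 is near the background. The median log2 difference was 0.10 over the SOCS genes and −0.02 over all genes, and 6 of 7 were positive. Under poly-A scaling the signs of Cish, Socs2, Socs3, Socs4, Socs6 and Socs7 turned, and all 7 were then negative. Under hybridisation control scaling Socs2, Socs3, Socs4, Socs6 and Socs7 turned and Cish did not.

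For AdV-IL4d2 against AdV-NULL, 0 of 7 SOCS genes were called by limma, where 1.26% of all genes were. An unadjusted p under 0.05 was found for 2 of them (Cish and Socs5, both lower), and Cish was rank 1425 of 11984 genes by p-value. The groups did not overlap for 2 of the 7 (Socs5 lower, Socs7 higher), against 22.6% of all genes. The median was 0.05, with 4 positive and 3 negative, and −0.001 over all genes. For AdV-IL4 against AdV-IL4d2, 1 of 7 was called (Cish, higher), where 2.24% of all genes were, and it was also the only one with an unadjusted p under 0.05. It was the only one of the 7 whose groups did not overlap, against 24.0% of all genes. The median was 0.19, with 6 positive and 1 negative, against −0.02 over all genes. With the hybridisation controls as reference, Cish alone was positive, and with the poly-A controls all 7 were negative.

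Without AdV-NULL mouse 1 and AdV-IL4 mouse 2, the SOCS genes called were 0, 0 and 1 in the order of the 3 comparisons, where 5.49%, 0.826% and 1.39% of all genes were called. Both comparisons against the control virus use the same AdV-NULL arrays, so their values are given side by side and not set against each other.

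Across the 9 arrays the members did not vary as a block. Pearson's r between the brightest probe sets of the 7 tested genes ran from −0.49 (Socs2 with Socs5) to 0.62 (Cish with Socs6), over arrays that share the group differences and the scaling. The genes most like Cish over the same 9 arrays were Fcrls (r = 0.96), Sgk1 (0.95) and Hk3 (0.95). They were chosen for their likeness over these arrays, so their differences are a description with no test. For AdV-IL4 against AdV-NULL the log2 difference was 0.25 for Fcrls, 0.28 for Sgk1, a serum and glucocorticoid induced kinase, and 1.10 for Hk3, a hexokinase. For AdV-IL4 against AdV-IL4d2 it was 0.47, 0.39 and 1.32 in the same order.

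For the other members, the 3 closest genes over the 9 arrays were Fam76b, Tmem165 and St8sia4 for Socs2 (r = 0.93, 0.93 and 0.92). For Socs3 they were Gm11545, Hip1 and Map4k4 (0.93, 0.91 and 0.90), and for Socs4 Dvl2, Scai and Actr1a (0.94, 0.92 and 0.91). Socs5 was closest to Tcf4, Ccni and Hivep2 (0.95, 0.93 and 0.93), and Socs6 to Wdr7, 1700023D09Rik and Pinx1 (0.93, 0.91 and 0.91). Socs7 was closest to Mettl6, Lacc1 and Ubqln4 (0.95, 0.95 and 0.95). They are the highest correlations among all tested genes over few arrays, and are given as descriptions only.

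The kinases and factors that act upstream of the SOCS genes were not called. Of 9 tested JAK kinases and STAT factors, 0 passed the limma test in any of the 3 comparisons, with medians of 0.12, 0.04 and 0.13 in the order AdV-IL4 against AdV-NULL, AdV-IL4d2 against AdV-NULL and AdV-IL4 against AdV-IL4d2. Stat3, which signals downstream of gp130 and has the brightest probe set of the list, differed by −0.11 for AdV-IL4 against AdV-NULL (adjusted p = 0.42). Stat5a, 1 of the STAT5 genes whose products bind the Cish promoter, differed by 0.30, −0.08 and 0.38 in the same order (adjusted p = 0.25, 0.873 and 0.251) and is named here after its values were seen. Of 7 tested cytokines that signal through JAKs, Il4 was the 1 called against AdV-NULL with either virus, and 0 were called between the forms. The viruses carried that gene, so its call follows from the design and is not a result about the list. Il4 read 43.5 ± 27.9 with AdV-NULL, below the array medians.

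Among 25 tested cytokine receptor chains, 4 rose and 1 fell with AdV-IL4 against AdV-NULL (median 0.06), and 0 were called in the other comparisons (medians 0.17 and 0.05). That is 20% of the list beside 13.0% of all genes, and 12% beside 5.49% without AdV-NULL mouse 1 and AdV-IL4 mouse 2. Il7r, a receptor chain that signals through JAK1 and STAT5, rose from 624 ± 193 to 1280 ± 33.9 (log2 difference 1.06 ± 0.17, limma adjusted p = 0.00229) and read 803 ± 39.0 with AdV-IL4d2. That call held in each fit with 1 array left out. Il21r read 67.8 ± 18.6 with AdV-NULL, below the array medians, 240.1 ± 6.82 with AdV-IL4 and 165 ± 54.9 with AdV-IL4d2. It was called for AdV-IL4 against AdV-NULL (adjusted p = 0.00407), but it passed the filter on low signals through the mice given IL-4 or its variant, so no fold is given for it. Il2rb read 123 ± 37.1 with AdV-NULL, a mean below the array medians, 286 ± 44.2 with AdV-IL4 and 255 ± 70.1 with AdV-IL4d2. For the same reason no fold is given for Il2rb. The calls of Il21r and Il2rb are counted in the 20% of the list and add no support to it. The calls of Il2rb (limma adjusted p = 0.0138) and Csf2rb (0.58, adjusted p = 0.0143) were lost without AdV-NULL mouse 1, with an adjusted p of 0.0501 and 0.0607. Without both of those arrays, 2 receptor chains rose and 1 fell.

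The ligase partners and the other inhibitors were mostly not called. Of 7 tested elongin and cullin ligase partners, 1 fell with AdV-IL4 against AdV-NULL, Rnf7, the RING subunit that works with Cul5, from 3283 ± 108 to 2431 ± 90.5 (log2 difference −0.43 ± 0.08, limma adjusted p = 0.00415), and it read 2984 ± 74.0 with AdV-IL4d2. That call held with each array left out, and the median of the list was −0.03. Of 13 tested other SOCS box proteins, 1 rose, Spsb1 (0.37, adjusted p = 0.0263), and it lost the call in 5 of the 9 fits, those without any 1 AdV-NULL mouse and without AdV-IL4 mouse 1 or 2 (over the 9 fits 0.32 to 0.40, with adjusted p up to 0.0826). The shares called, 14.3% and 7.69%, are near or below the 13.0% of all genes. In both lists 0 genes were called in the other comparisons.

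Of 14 other inhibitors of JAK-STAT signalling, 3 rose with AdV-IL4 against AdV-NULL (median 0.14), 21.4% beside 13.0% of all genes, and 0 were called elsewhere. Ptpn2, a phosphatase that acts on JAKs and STATs in the cytoplasm and nucleus, rose from 2146 ± 202 to 3202 ± 460 (log2 difference 0.57 ± 0.11, limma adjusted p = 0.00745) and read 2452 ± 119 with AdV-IL4d2. The phosphatase Ptpn6 (0.59, adjusted p = 0.0231) lost its call in 4 of 9 fits, without AdV-NULL mouse 1 or 3 or AdV-IL4 mouse 1 or 3 (adjusted p up to 0.0918). Ptprc, the leukocyte phosphatase CD45 (0.47, adjusted p = 0.0166), lost its call in 3 of 9 fits, without AdV-NULL mouse 1 or 3 or AdV-IL4 mouse 3 (adjusted p up to 0.0678). Without AdV-NULL mouse 1 and AdV-IL4 mouse 2, 1 of these inhibitors was called, 7.14% beside 5.49% of all genes.

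Some of the receptors and adaptors that SOCS proteins act on fell with AdV-IL4. Of 9 tested, 3 fell against AdV-NULL and 0 rose, 33.3% called beside 13.0% of all genes, with a list median of −0.27 beside −0.02 over all genes. Igf1r, the receptor of insulin-like growth factor, fell from 1939 ± 169 to 1344 ± 135 (log2 difference −0.52 ± 0.10, limma adjusted p = 0.00745), a call that held in each fit with 1 array left out. It was also lower with AdV-IL4 than with AdV-IL4d2 (−0.45, adjusted p = 0.0468), a call lost in all 9 such fits (adjusted p up to 0.166). Irs1 (−0.53, adjusted p = 0.0173) lost its call without AdV-NULL mouse 1 or 3 (adjusted p up to 0.0624). Ghr, the growth hormone receptor restrained by SOCS2, also fell (−0.38, adjusted p = 0.0281), and lost the call in 4 of 9 fits, without AdV-NULL mouse 1 or 2 or AdV-IL4 mouse 1 or 3 (adjusted p up to 0.086). Without AdV-NULL mouse 1 and AdV-IL4 mouse 2 together, 2 of the 9 fell.

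STAT target genes other than the SOCS members give the context for Cish. Of 8 tested STAT5 targets, 3 rose with AdV-IL4 against AdV-NULL (median 0.17), 0 were called with AdV-IL4d2 (median 0.12), and 2 were higher with AdV-IL4 than with AdV-IL4d2 (median 0.14). That is 37.5%, 0% and 25% of the list beside 13.0%, 1.26% and 2.24% of all genes. Igf1, insulin-like growth factor, rose from 1171 ± 190 to 2676 ± 261 (log2 difference 1.19 ± 0.12, limma adjusted p = 0.000164) and stood at 1244 ± 105 with AdV-IL4d2. Pim1, a serine kinase counted under STAT3 and STAT5 targets, rose from 967 ± 81.2 to 1561 ± 184 (0.68 ± 0.11, adjusted p = 0.0024) and stood at 943 ± 43.9 with AdV-IL4d2. Like Cish, Igf1 and Pim1 were higher with AdV-IL4 than with AdV-IL4d2 (adjusted p = 0.00144 and 0.00632). Bcl2l1, the survival factor Bcl-xL, rose by 0.47 (adjusted p = 0.0088). These calls held in each fit with 1 array left out, and without AdV-NULL mouse 1 and AdV-IL4 mouse 2 the STAT5 counts were 3, 0 and 2 as before. The shares of all genes were then 5.49%, 0.826% and 1.39%. The remaining STAT5 targets were not called between the forms. Osm (0.71) and Bcl2l1 (0.33) were higher with AdV-IL4, and Id1 (−0.42), Ccnd1 (−0.30), Ccnd2 (−0.21) and Pim2 (−0.04) were lower. For Id1, Ccnd1 and Ccnd2 every AdV-IL4 mouse was below every AdV-IL4d2 mouse.

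Of 9 tested STAT6 targets, 6 rose with AdV-IL4 against AdV-NULL (median 0.98), 0 were called with AdV-IL4d2 (median −0.16), and 6 were higher with AdV-IL4 than with AdV-IL4d2 (median 1.19). They were Arg1, Chil3, Chil4, Ccl17, Mrc1 and Pdcd1lg2 in both cases, among them markers of alternatively activated macrophages. With 1 array left out, Mrc1 lost its call in 5 of 9 fits in each comparison (limma adjusted p up to 0.133 and 0.127), and Pdcd1lg2 in 4 and 5 (up to 0.0924 and 0.11). Chil3 lost its call between the forms in 2 of 9, without AdV-IL4d2 mouse 1 or 3 (adjusted p up to 0.0532), while Arg1, Chil4 and Ccl17 kept theirs in all 9. Over all 9 arrays 66.7%, 0% and 66.7% of the list were called, beside 13.0%, 1.26% and 2.24% of all genes. The counts were 5, 0 and 5 without AdV-NULL mouse 1 and AdV-IL4 mouse 2, beside 5.49%, 0.826% and 1.39% of all genes. Arg1 read 90.0 ± 19.2 with AdV-NULL and 69.2 ± 37.3 with AdV-IL4d2, and Pdcd1lg2 134 ± 17.6 and 115 ± 23.0. These signals are below the array medians. Both genes passed the filter on low signals through the AdV-IL4 mice, so their calls add no support. The list medians of 0.98 and 1.19 are the values of Pdcd1lg2. Some of the targets, such as Arg1 and Mrc1, are known from macrophages, whose markers are given below. Mrc1 is in both lists.

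Of 10 STAT3 targets, 4 rose and 1 fell with AdV-IL4 (median 0.39), 1 fell with AdV-IL4d2 (median 0.23), and 2 were higher and 1 lower between the forms (median 0.25). That is 50%, 10% and 30% of the list beside 13.0%, 1.26% and 2.24% of all genes. The members that fell were Hp, haptoglobin, with AdV-IL4 (−0.76, limma adjusted p = 0.00464) and Junb with AdV-IL4d2 (−1.02, adjusted p = 0.00513), and both held with each array left out. Of the STAT3 targets that rose, Lcn2 (1.03, adjusted p = 0.0148) lost its call without AdV-NULL mouse 1 or 3 (adjusted p up to 0.0616), Cebpd in 3 of 9 fits and Bcl3 in 7 of 9 (up to 0.0771 and 0.163). Junb, higher between the forms, lost that call in 5 of 9 (up to 0.0962). Without AdV-NULL mouse 1 and AdV-IL4 mouse 2, 1 STAT3 target rose and 1 fell with AdV-IL4, 20% beside 5.49% of all genes.

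**Figure D4:**
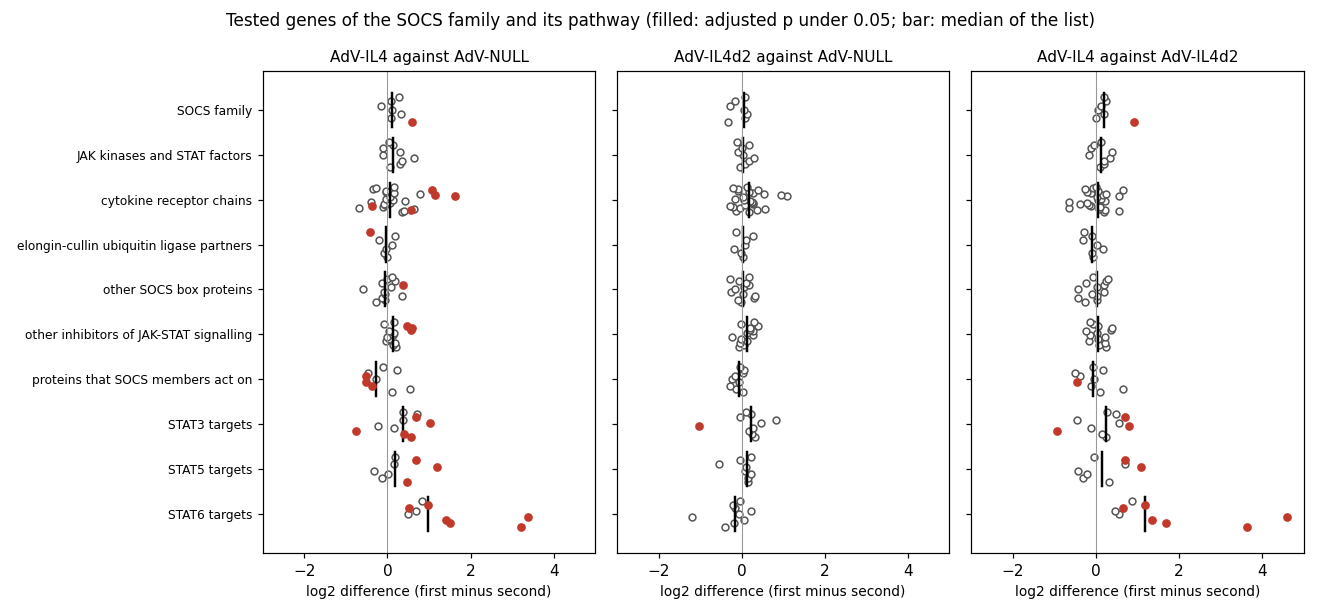
Log2 difference (x axis, first group minus second) of each tested gene of the SOCS family and of 9 lists around it in the 3 comparisons, with the median of each list as a bar and called genes filled. STAT6 targets (median 0.98 and 1.19) lie to the right wherever AdV-IL4 is the first group, while the SOCS genes stay near 0 except Cish (0.60 and 0.92). Of these targets, Arg1 and Pdcd1lg2 had mean signals below the array medians outside the AdV-IL4 group. All values are relative to the typical probe set, and scaling to poly-A controls turned those of Cish below 0.

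The lungs also differed in the markers of the cells they held, and RNA of a whole lung cannot tell a change in cell number from a change in RNA per cell. Of 8 macrophage markers, 4 rose and 1 fell with AdV-IL4 against AdV-NULL (median 0.39), 0 were called with AdV-IL4d2 (median 0.04), and 2 were higher and 1 lower between the forms (median 0.20). That is 62.5%, 0% and 37.5% of the list beside 13.0%, 1.26% and 2.24% of all genes. Csf1r, Lyz2 and Siglec5 were not called in any comparison. With AdV-NULL mouse 1 and AdV-IL4 mouse 2 left out, 2 rose and 1 fell with AdV-IL4, and 1 was higher and 1 lower between the forms. Those are 37.5% and 25% of the list beside 5.49% and 1.39% of all genes. Itgax, the integrin CD11c, rose from 1050 ± 218 to 3157 ± 324 and stood at 1127 ± 203 with AdV-IL4d2 (limma adjusted p = 0.000103 against AdV-NULL and 0.00092 between the forms). Marco, a scavenger receptor, fell from 397 ± 61.0 to 58.4 ± 33.2, which is below the array medians (limma adjusted p = 0.000226). The summed signal of the 8 macrophage markers was 39229 to 52876 with AdV-NULL, 50713 to 56506 with AdV-IL4 and 42639 to 49315 with AdV-IL4d2. The AdV-IL4 sums overlapped those of AdV-NULL and were all above those of AdV-IL4d2. Lyz2 made up most of these sums, with means of 33328 with AdV-NULL, 38276 with AdV-IL4 and 34322 with AdV-IL4d2. The part of the macrophage markers in the Cish difference was not tested.

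Of 7 tested B cell markers, 5 rose with AdV-IL4 (median 0.78), 1 with AdV-IL4d2 (median 0.38) and 0 differed between the forms by the test. That is 71.4%, 14.3% and 0% of the list beside 13.0%, 1.26% and 2.24% of all genes. Among the 5, Cd79a read 110 ± 46.1 with AdV-NULL, a mean below the array medians, 253 ± 35.9 with AdV-IL4 and 207 ± 47.7 with AdV-IL4d2. It passed the filter on low signals mainly through the mice given IL-4 or its variant, so its call adds no support to the 71.4%. The summed signal of the B cell markers was 2721 to 3704, 4748 to 5228 and 3994 to 4694 in the order AdV-NULL, AdV-IL4, AdV-IL4d2. Of 7 tested T cell markers, 0 were called with AdV-IL4 (median 0.28), 1 rose with AdV-IL4d2 (median 0.57) and 0 differed between the forms, and the sums were 1709 to 2323, 2070 to 3320 and 2348 to 3049. Of 5 tested neutrophil markers, 2 fell with AdV-IL4 (median −0.69), 0 were called with AdV-IL4d2 and 2 were lower between the forms. The T cell shares were 0%, 14.3% and 0%, and the neutrophil shares 40%, 0% and 40%, beside the same shares of all genes. With the same 2 arrays left out, 2 B cell markers rose with AdV-IL4 and 0 with AdV-IL4d2, 0 T cell markers were called in any comparison, and the neutrophil counts were as before. For AdV-IL4 against AdV-NULL, 28.6% of the B cell and 40% of the neutrophil markers were then called, beside 5.49% of all genes. The AdV-IL4d2 calls of Ms4a1 (CD20) and Cd3g (a CD3 chain) were lost in 6 and 5 of the 9 fits with 1 array left out (limma adjusted p up to 0.166 and 0.147). Their part in the SOCS values was not tested.

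Markers that define the lung were bright, with 7 alveolar type 2 markers summing to 99310 or more on every array. With AdV-IL4 against AdV-NULL, 2 of these 7 rose, 4 of 8 club and ciliated cell markers fell, and of 8 endothelial markers 2 rose and 2 fell. Those are 28.6%, 50% and 50% of the lists beside 13.0% of all genes. Between the forms, 2 club and ciliated markers were lower with AdV-IL4 (25% beside 2.24% of all genes), and 0 of the alveolar or endothelial markers were called. With AdV-IL4d2 against AdV-NULL 0 of these 3 lists' markers were called. Of 10 striated muscle markers, 8 fell with AdV-IL4 (median −2.45), and their sums ran from 15860 to 83298 with AdV-NULL, from 1875 to 7530 with AdV-IL4 and from 6358 to 21547 with AdV-IL4d2. Of 3 tested fat markers 2 fell with AdV-IL4, and 0 muscle or fat markers were called in the other comparisons. With AdV-IL4 against AdV-NULL, 80% of the muscle and 66.7% of the fat markers were called, beside 13.0% of all genes. Without AdV-NULL mouse 1 and AdV-IL4 mouse 2, 1 muscle and 1 fat marker, 2 club and ciliated markers and 2 endothelial markers fell, and 0 alveolar or endothelial markers rose. Those that fell are 10%, 33.3%, 25% and 25% of their lists, beside 5.49% of all genes. Between the forms 1 endothelial marker was then lower, 12.5% beside 1.39% of all genes. With 1 array left out, the ciliated cell markers Ccdc153 and Tekt4 lost their calls against AdV-NULL in 8 and 5 of 9 fits, and the alveolar marker Slc34a2 in 5 of 9.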

How the data were processed

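The deposited values are linear MAS5 intensities. Tools named in the submitters' processing notes are GCOS, MAS5 and Affymetrix Expression Console 2.0, with no role stated. MAS5 scaling hides a change shared by most genes, and low signals are noisy. Arrays have no depth, so their number limits the precision.

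Signals were taken as log2(signal + 16). A probe set was tested if it exceeded the array's median on 3 or more of 9 arrays, and 64 control probe sets were left out. All 9 arrays entered 1 fit of 3 group means (lmFit and eBayes with trend, limma 3.58.1, R 4.3.3, 6 residual degrees of freedom, two-sided, Benjamini-Hochberg, threshold 0.05). A gene stands by its brightest tested probe set. In a copy of the data with 200 probe sets changed, the fit for AdV-IL4 against AdV-NULL recovered 75% of log2 changes of 1 and 98% of changes of 2.

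The annotation gave 1 symbol to 34958 probe sets, several to 932 and none to 9211. The rule for named genes took all SOCS members, the 3 genes most correlated with each, up to 3 called genes per list (or the brightest), Il4, and the Gapdh and Actb controls. Not all of these are given values, and 1 list of target genes is not reported here. The members, lists and rule were chosen with earlier results of these data known. Replicates are separate mice. Alternatives were other pseudocounts, filters, scalings and models, and arrays left out.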

Additional observations from a re-analysis of the deposited data

Results flagged for a closer look

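The effect of AdV-IL4 on Cish differed from that of AdV-IL4d2: the difference between the effects was 0.92 on the log2 scale and passed the test of that difference itself (limma adjusted p = 0.00521). Each AdV-IL4 mouse was above, and each AdV-IL4d2 mouse below, the AdV-NULL mean of 1492, though the AdV-IL4d2 and AdV-NULL mice overlapped (limma adjusted p = 0.282). This difference is the comparison of AdV-IL4 against AdV-IL4d2 given above. It did not pass under scaling to the hybridisation controls (0.39, limma adjusted p = 0.123) or the poly-A controls (−0.14, adjusted p = 0.56).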

How the results depend on the processing

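The count of all probe sets called for AdV-IL4 against AdV-NULL, 2546 as reported, was 7451 under scaling to the hybridisation controls (295 higher, 7156 lower, against 1335 and 1211), 18123 under scaling to the poly-A controls (152 higher, 17971 lower) and 1068 without AdV-NULL mouse 1 and AdV-IL4 mouse 2. With 1 array left out it ran from 1313 (without AdV-NULL mouse 1) to 2210. For AdV-IL4d2 against AdV-NULL, 314 became 519 with poly-A scaling (469 higher, 50 lower, against 221 and 93), 195 without a trend in eBayes and 200 without the same 2 arrays, and ran from 156 (without AdV-IL4d2 mouse 3) to 417. For AdV-IL4 against AdV-IL4d2, 416 became 244 with no filter, 11163 and 22503 with the control scalings (89 and 33 higher, 11074 and 22470 lower, against 217 and 199), 165 without a trend and 237 without the 2 arrays, and ran from 110 (without AdV-IL4d2 mouse 3) to 446. SOCS genes called for AdV-IL4 against AdV-NULL, 1 as reported, were 5 with poly-A scaling (all lower), 0 without the 2 arrays and 2 with the mean of a gene's probe sets, and 0 to 1 with 1 array left out. Between the forms, 1 became 6 with poly-A scaling (all lower).

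Under poly-A scaling the log2 differences that changed sign for AdV-IL4 against AdV-NULL became −0.20 for Cish, −0.72 for Socs2, −0.46 for Socs3, −0.69 for Socs4, −0.68 for Socs6 and −0.51 for Socs7, and −0.38, −0.36 and −0.19 for the Socs2 probe sets 1438470_at and 1442586_at and the Socs3 probe set 1416576_at. For AdV-IL4d2 against AdV-NULL they became 0.005 for Socs5 and 0.11 for Socs6. Between the forms they became −0.14 for Cish, −0.87 for Socs3, −1.02 for Socs4, −0.95 for Socs5, −0.79 for Socs6 and −0.88 for Socs7. These scalings add a constant to each array, so every probe set moves with the shift of the median. Other causes were not tested. Probe sets other than the brightest were followed through the alternatives, and list counts without 2 arrays were made, after the data were seen.

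The labels do not say that mouse numbers pair anything, and the deviations of same-numbered mice from their group means correlated weakly (mean r = 0.0326, 2 of 9 pairs over 0.1) beside those of differently numbered mice (mean r = −0.0163, 1 of 18 over 0.1). The best partner had the same number in 10 of 18 cases. Between AdV-IL4 and AdV-IL4d2 the same-numbered pairs had r = 0.116, 0.102 and 0.0707 and the 6 others were below 0, and a weak pairing of those groups was not tested further. With the mouse number as a replicate block, 2427, 312 and 384 probe sets and 1, 0 and 1 SOCS genes were called. Cish kept its calls (limma adjusted p = 0.019 and 0.0085), and Socs3 1416576_at had an adjusted p of 0.0592.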
